A study of Mus musculus with 6 samples.

Results

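The troponin genes were examined in mouse pro-B cells, a blood cell type far from the muscle in which troponins work. The group was defined by name, as every array probe set whose listed gene is exactly Tnnt1, Tnnt2, Tnnt3, Tnni1, Tnni2, Tnni3, Tnnc1 or Tnnc2. These 8 genes were read by 12 of the 45037 probe sets tested. They were singled out because Tnnt2 differed between the groups compared here, so their differences between those groups are given as a description, without p-values. All cells were Pax5-/-, that is, without the transcription factor by which B cell progenitors become committed, and were kept on ST2 bone marrow stromal cells with IL-7 at 5 ng/ml. One group received the MigR1 control retrovirus and the other the Mig-EBF retrovirus, which carries EBF, a transcription factor of early B cell development. Cells expressing GFP were sorted after 2 days, and RNA from each group was read on 3 arrays, called control 1 to 3 and EBF 1 to 3 after their labels. The mutation, stromal layer, cytokine and sort were thus shared by both groups, and the labels do not give the strain or age of the animals or say whether replicates were separate cultures. The differences are therefore set against a spread between arrays that may be technical.

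Troponin is the calcium switch of striated muscle. Troponin C binds calcium, troponin I holds back the interaction of actin with myosin, and troponin T fastens the complex to tropomyosin on the thin filament. Each subunit comes in versions that are characteristic of heart, slow skeletal or fast skeletal muscle. Tnnt2 encodes cardiac troponin T, Tnnt1 and Tnnt3 the slow and fast skeletal forms, Tnni3 cardiac troponin I, and Tnni1 and Tnni2 its slow and fast forms. Tnnc1 encodes the troponin C of heart and slow muscle, and Tnnc2 that of fast muscle. In the mouse genome the T and I genes lie in pairs.

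Because EBF binds DNA, the stretch upstream of Tnnt2, the gene with the largest difference, is shown. It is the 250 bases before the first of the Tnnt2 start sites in the RefSeq promoter table, chr1:135836084-135836333 on the plus strand of GRCm38.p6. Capitals mark matches to the E-box CANNTG, the GATA motif AGATAA and the MCAT motif CATTCCT, which was described in cardiac troponin T promoters.
Tnnt2 upstream: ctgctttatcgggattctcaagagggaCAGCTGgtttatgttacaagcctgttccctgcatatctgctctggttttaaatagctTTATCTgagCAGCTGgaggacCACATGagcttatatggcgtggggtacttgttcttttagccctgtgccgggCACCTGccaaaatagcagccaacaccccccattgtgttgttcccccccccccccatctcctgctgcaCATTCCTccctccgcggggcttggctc

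Both strands were searched, and none of the marked matches overlap each other. The MCAT match starts 27 bases before the start site. The letters CATTCCT occurred in 4.51% of all 32851 windows of this length in the table, AGATAA in 9.99% and CANNTG in 66.2%. The core of the EBF motif, CCCNNGGG, was present in 11.8% of all windows. It was not found in the Tnnt2 window above, nor in that of a second listed Tnnt2 start. Among the 8 windows listed for troponin genes, which belong to Tnnt1, Tnnt2, Tnni1, Tnni3, Tnnc1 and Tnnc2, the core occurred in 1, that of Tnnc1, as CCCTGGGG. Windows for Tnnt3 and Tnni2 were not analysed here. These matches describe the letters only.

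The arrays were alike in brightness, with median intensities of 424 to 451. The 27 probe sets for Bacillus transcripts, used here as a level for low readings, had a median between 97.6 and 108 on each array, and their highest reading was 410.4. All 14 measured pro-B genes, markers of the labelled cell type, exceeded that highest Bacillus reading on 6 of 6 arrays. The brightest Ebf1 probe set read 4537 ± 394 in the EBF arrays and 4169 ± 127 in the controls (SD, n = 3 each), and Pax5 read 933 ± 22.9 and 980 ± 40.6. Neither passed the threshold of limma's test over all probe sets (adjusted p = 0.469 and 0.619). Of the other 4 Ebf1 probe sets none passed it either; 3 had lower means in the EBF arrays, and 1 of these, at 1352 against 1711 (log2 difference -0.33 ± 0.08; adjusted p = 0.106), passed with the replicate number as a block (0.0443). Whether these probe sets lie in the viral insert or the deleted part is not given in the sources used here, so they do not check the labels. In bulk RNA such as this, fewer cells expressing a gene and less RNA per cell cannot be told apart.

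Cardiac troponin T was low in every control array and stood above the highest Bacillus control in every EBF array. Its brightest probe set, 1424967_x_at, read 686, 781 and 558 in EBF 1 to 3 and 82.2, 73.6 and 64.6 in control 1 to 3. The second, 1418726_a_at, which was designed on a RefSeq transcript of the gene, read 737, 821 and 558 in EBF 1 to 3 and 33.6, 25.5 and 30.7 in control 1 to 3. With both probe sets EBF 2 was the highest array and EBF 3 the lowest of its group, and the groups were far from overlapping. The differences on the scale of log2(intensity + 32) were 2.74 ± 0.12 for 1424967_x_at and 3.56 ± 0.13 for 1418726_a_at (limma SE, n = 3 per group). The latter was the largest increase among all 45037 probe sets. All 3 control readings of both probe sets lay below the median Bacillus control of their array, so the fitted sizes rest on readings that cannot be resolved from that level. With the controls set to that median and no pseudocount, the mean of the EBF arrays was 6.40-fold higher for 1424967_x_at and 6.67-fold for 1418726_a_at. These values come from means of log2 intensity and carry no spread between arrays. The added 32 sets the fitted sizes: with the lower pseudocount of 8 they were 3.06 and 4.22, and with the higher pseudocount tried they were 1.99 and 2.39.

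The remaining Tnnt2 probe set, 1440424_at, gave another picture. It read 150.5, 126.9 and 127.8 in EBF 1 to 3 and 121.5, 131 and 108 in control 1 to 3. These arrays overlapped, all readings were slightly above the median Bacillus control, and the difference was 0.13 ± 0.09. The accession listed for this probe set is not among the RefSeq transcripts listed for Tnnt2, and neither is that of 1424967_x_at. Where in the gene each of them lies was not analysed here.

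**Figure D1:**
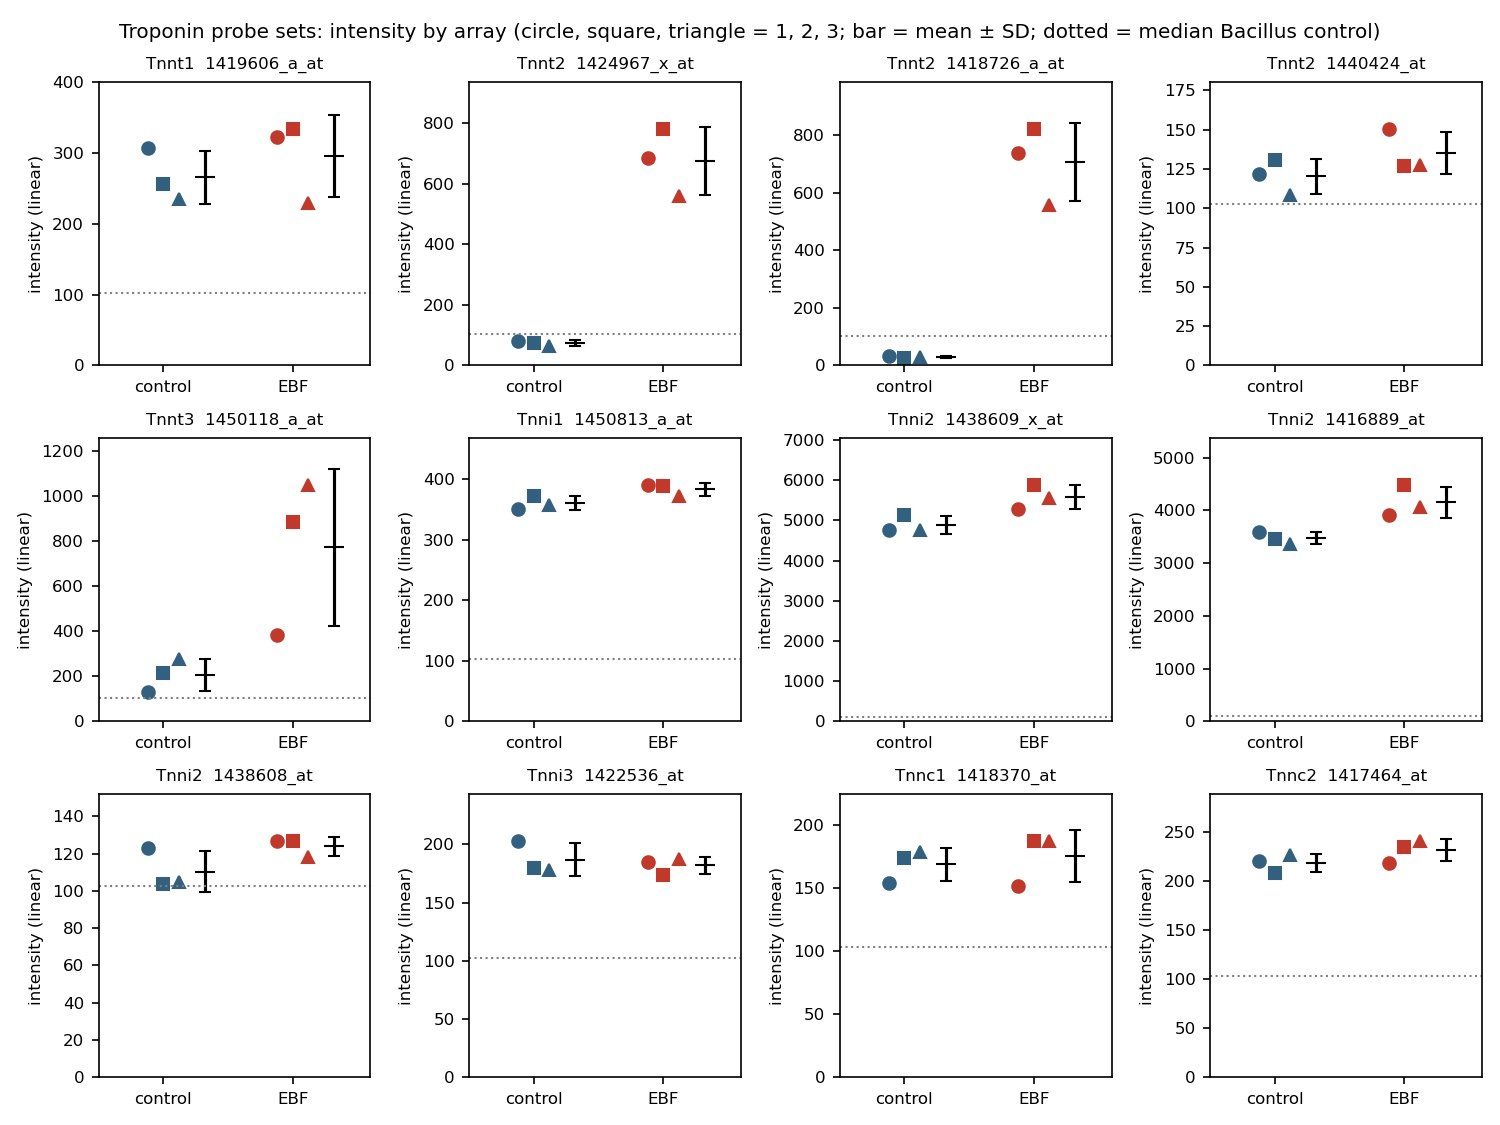
Deposited intensity (linear, each panel from 0 with its own scale) of the 12 troponin probe sets in the control and EBF arrays; circles, squares and triangles are replicates 1, 2 and 3, bars are mean ± SD (n = 3), and the dotted line is the median Bacillus control reading. The 2 upper Tnnt2 probe sets lie below the dotted line in every control array and at 558 or more in every EBF array, Tnnt3 is spread from 382 to 1051 within the EBF arrays, and most other panels show groups side by side.

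Fast skeletal troponin T, Tnnt3, was also higher with EBF, but its arrays differed widely within each group. Its probe set 1450118_a_at read 382, 886 and 1051 in EBF 1 to 3 and 133, 214 and 276 in control 1 to 3. Every EBF array exceeded every control array, and replicate 1 was the lowest and replicate 3 the highest of both groups. The means were 773 ± 349 and 208 ± 71.8 (SD, n = 3 each), and the log2 difference was 1.68 ± 0.35 (limma SE), the rank 7 increase among all probe sets. Same-numbered arrays deviated from their groups together across the arrays as a whole, and in a fit with that number as a block the same difference had an SE of 0.11. Taken number by number, the log2 differences were 1.33, 1.90 and 1.82. With 1 array left out at a time, the difference lay between 1.41 (without EBF 3) and 2.10 (without EBF 1).

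The order of arrays differed between these T genes. For Tnnt2 EBF 3 was the lowest of the EBF arrays, and for Tnnt3 it was the highest. The third T gene, slow skeletal Tnnt1, read 323, 334 and 229 in EBF 1 to 3 and 307, 256 and 234 in control 1 to 3. Its groups overlapped, with a difference of 0.13 ± 0.14, and replicate 3 was the lowest array of both groups.

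Among the inhibitory subunits, fast skeletal Tnni2 was read brightly in all 6 arrays. Its probe set 1438609_x_at read 5293, 5882 and 5555 in EBF 1 to 3 and 4761, 5135 and 4747 in control 1 to 3. The probe set 1416889_at read 3915, 4486 and 4058 in EBF 1 to 3 and 3594, 3463 and 3362 in control 1 to 3. With both, every EBF array exceeded every control array, but by little: the log2 differences were 0.19 ± 0.08 and 0.25 ± 0.08. These were the 2 of 12 troponin probe sets above the highest Bacillus control on all 6 arrays. The third Tnni2 probe set, 1438608_at, stayed between 104 and 127 on all arrays, with overlapping groups and a difference of 0.13 ± 0.08. Slow skeletal Tnni1 read 391, 389 and 371 in EBF 1 to 3 and 351, 373 and 358 in control 1 to 3. Here EBF 3 lay within the control readings, and the difference was 0.08 ± 0.07. Cardiac Tnni3, the usual partner of Tnnt2 in heart muscle, read 184, 174 and 187 in EBF 1 to 3 and 203, 179 and 178 in control 1 to 3. Its groups overlapped, and its difference of -0.03 ± 0.08 was the 1 negative value among the 12.

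The calcium-binding subunits stayed low in both groups. Tnnc1, which encodes the troponin C that works with cardiac troponin T, read 151, 187 and 187 in EBF 1 to 3 and 154, 174 and 178 in control 1 to 3. The arrays overlapped, with a difference of 0.04 ± 0.10, and EBF 1 was the lowest of all. Tnnc2 read 219, 234 and 241 in EBF 1 to 3 and 220, 208 and 226 in control 1 to 3, a difference of 0.07 ± 0.07 with overlapping groups. Both exceeded the median Bacillus control on all arrays but the highest Bacillus control on none.

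**Figure D2:**
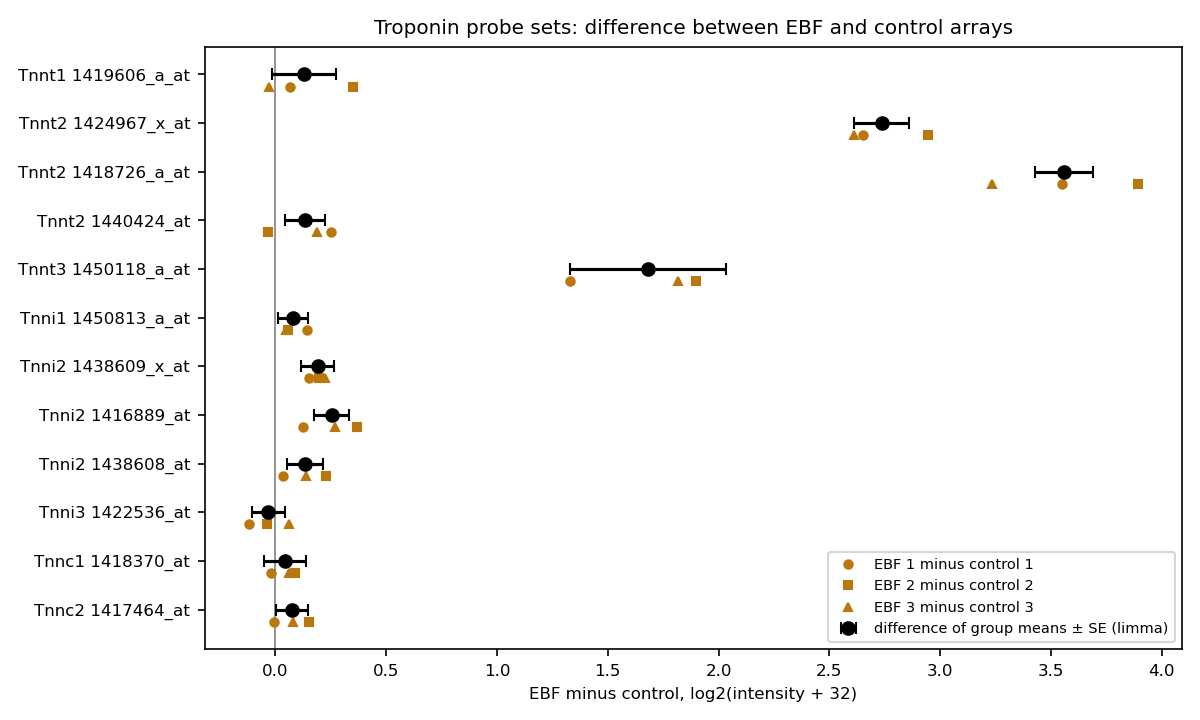
Difference between EBF and control arrays in log2(intensity + 32) for the 12 troponin probe sets; black points are differences of group means with limma's SE (n = 3 per group), and orange symbols are same-numbered arrays subtracted from each other. The upper Tnnt2 probe sets (2.74 and 3.56) and Tnnt3 (1.68) stand away from 0, and the other 9 lie between -0.03 and 0.25.

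In counts, 2 of the 12 probe sets, both of Tnnt2, were called higher (an adjusted p below 0.05 in limma over all probe sets) and 0 lower, where 0.344% of all probe sets were called higher and 0.531% lower. With the replicate block 3 were called higher, Tnnt3 being the added one, and 0 lower, against 4.88% and 2.4% of all probe sets. The groups did not overlap, with EBF higher, for 5 of the 12, against 15.5% of all probe sets. Since the genes were chosen for this contrast, nothing is read from these shares. The median difference of the 12 was 0.13 and that of all probe sets 0.02. The direction was positive for 11 of the 12, and for 10 after quantile normalization, where Tnnc1 turned to -0.003. Called or not, the 9 probe sets other than Tnnt3 and the upper Tnnt2 pair differed by at most 0.25. A filter that kept only probe sets whose mean over all arrays exceeded the highest Bacillus control left 3 of the 12 members, 1 for Tnnt3 and 2 for Tnni2, and removed Tnnt2.

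The chromosomal pairs of T and I genes allowed each T gene to be set beside its neighbours. On chromosome 1 the order of measured genes is Tnni1, Lad1, Tnnt2, Pkp1. Lad1, a basement membrane anchoring protein, differed by 0.07 ± 0.08 and Pkp1, a desmosome protein, by 0.19 ± 0.16 (limma adjusted p = 0.667 and 0.564), beside 0.08 for Tnni1. On chromosome 7 the order is Tnni2, Lsp1, Tnnt3, Mrpl23. Lsp1, an actin-binding protein of leukocytes that lies between these troponin genes, read 11060 ± 638 in EBF and 11260 ± 346 in control arrays (SD, n = 3 each), a difference of -0.03 ± 0.07 (adjusted p = 0.877). Tnnt1 and Tnni3, which adjoin each other elsewhere on chromosome 7, differed by 0.13 and -0.03. Over all 8 troponin genes, the 3 nearest measured genes on each side made 32 genes that are not troponins. None of the 32 was called by limma at its brightest probe set, against 1.09% of all 18193 genes. Of the 32, 9 had an unadjusted p below 0.05. The share of all genes below that p was not counted, so nothing is read from this count. The same holds for such counts in the lists below. With the block 1 of the 32 was called, Stab1 near Tnnc1 (blocked adjusted p = 0.0463), against 7.34%. Their median difference was 0.09, and the smallest p-values belonged to Csrp1 (0.28 ± 0.07; adjusted p = 0.121) and Ins2 (0.29 ± 0.08; 0.140). Stab1 was chosen after its value was seen.

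**Figure D3:**
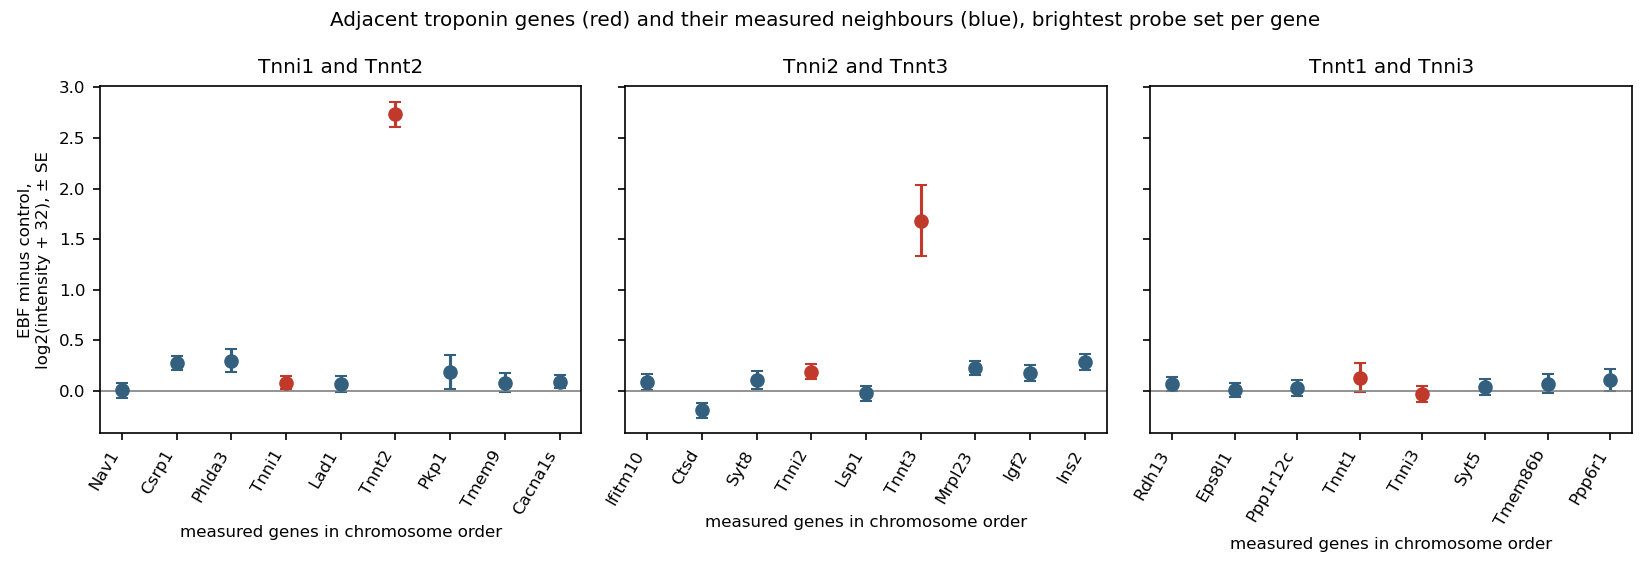
Difference between EBF and control arrays in log2(intensity + 32) with limma's SE (n = 3 per group) at the brightest probe set of each gene, in chromosome order around the 3 pairs of T and I genes; red marks troponin genes and blue their measured neighbours. Tnnt2 (2.74) and Tnnt3 (1.68) stand above genes on both sides, including Tnni1 (0.08) and Tnni2 (0.19). The troponins were singled out because Tnnt2 differed.

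The rest of the contractile apparatus was compared through 4 lists of muscle genes, put together by name, each gene read at its brightest probe set. Among 17 thin filament partners, the actins, tropomyosins, tropomodulins, leiomodins and nebulins, 0 were called in either direction by limma, with or without the block, and 2 had an unadjusted p below 0.05. Those were the tropomyosin genes Tpm4 (-0.27 ± 0.08; adjusted p = 0.147) and Tpm1 (-0.21 ± 0.08; 0.229), both with lower values in EBF arrays. Tropomyosin is the protein to which troponin T attaches. The list's median was 0.03. Tpm2 was higher at another probe set (0.37 ± 0.09, limma adjusted p = 0.109) and was called there with the block (0.0272). So was Tmod3 (0.58 ± 0.18, adjusted p = 0.164, blocked 0.0187). A further Tpm2 probe set was lower (-0.35 ± 0.11, adjusted p = 0.164, blocked 0.0822). Among 33 genes of the thick filament, titin and the Z disc, 0 were called, 8 had an unadjusted p below 0.05 and the median was 0.04. The smallest p-values were those of the Z disc protein gene Myot (0.36 ± 0.08; adjusted p = 0.0869) and the myosin heavy chain gene Myh7b (0.27 ± 0.07; 0.118). With the block 4 of the 33 were called higher, where 7.34% of all genes were called with the block and 1.09% without: Myot, the M band gene Myom2 (0.46), the intermediate filament gene Des (0.35) and the cardiac myosin gene Myh6 (0.46). Of these Myh6 had a mean below the median Bacillus control in the control arrays, 66.2 ± 27.2 (SD, n = 3), and 103.5 ± 38.7 with EBF. A further Myh6 probe set was also higher (0.39, blocked adjusted p = 0.0269). For Des and Myom2 the call rests on the brightest probe set. Another Des probe set was lower (-0.19, blocked adjusted p = 0.247). The other Myom2 probe sets differed by -0.08, 0.06 and -0.12 and were not called with or without the block.

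Of 15 genes of calcium handling, muscle energy supply and natriuretic peptides, 0 were called with or without the block, 2 had an unadjusted p below 0.05 and the median was 0.06. They were the calsequestrin gene Casq2 (0.24 ± 0.08; adjusted p = 0.165) and the muscle creatine kinase gene Ckm (0.27 ± 0.09; 0.186). Of 25 transcription factors of heart and skeletal muscle 0 were called by limma, 5 had an unadjusted p below 0.05 and the median was 0.00. Myog, which drives muscle differentiation, had 0.31 ± 0.08 (adjusted p = 0.119, blocked 0.0490) and was the 1 called with the block. Tbx5, a regulator of heart development, had 0.25 ± 0.08 (adjusted p = 0.183). Without EBF 3, Myod1 (0.48), Myog (0.37) and Myf6 (-0.37) were called. In that fit 4287 of all 45037 probe sets were called, against 394 with all arrays, so nothing is read from these calls. With all 6 arrays, no gene of these 4 lists differed by more than 0.46 in either direction at its brightest probe set. Other probe sets went further. Higher ones were Myoz3 (0.73, blocked adjusted p = 0.0131), Tmod3 (0.58, blocked 0.0187) and Ttn (0.57, blocked 0.00526), called with the block only. At their brightest probe sets Myoz3, Tmod3 and Ttn differed by -0.08, 0.02 and 0.18. Mef2a was lower (-0.54, limma adjusted p = 0.0154).

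**Figure D4:**
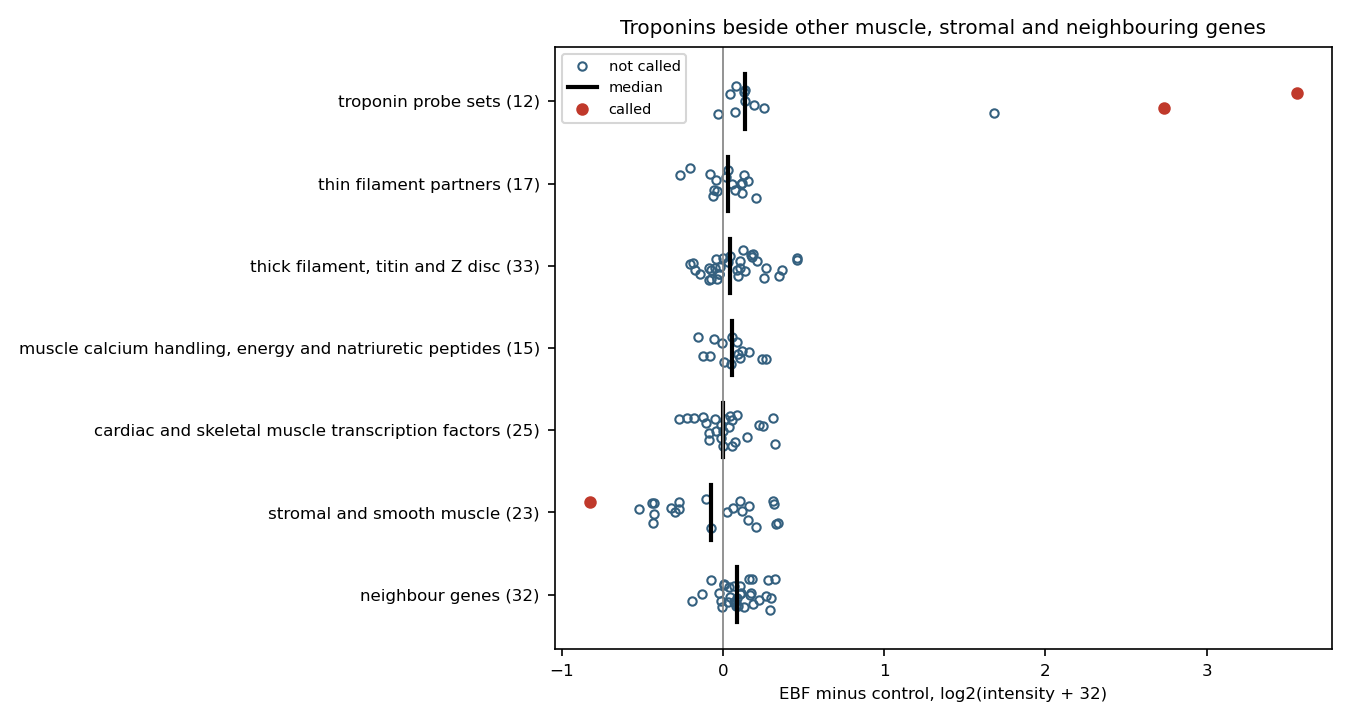
Difference between EBF and control arrays in log2(intensity + 32) for the troponin probe sets and for 6 gene lists at the brightest probe set per gene, with the number of points in parentheses; filled red points passed limma's adjusted p threshold, open points did not, and black bars are medians. The upper Tnnt2 points and Tnnt3 lie to the right of every gene of the other lists, whose medians lie between -0.08 and 0.09. The troponins were singled out because Tnnt2 differed, so nothing is read from the place of Tnnt2. Troponins are shown at every probe set, the listed genes at the brightest only.

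Markers of other cell types were read on the same arrays. Over all genes 1.09% were called by limma in either direction, and 7.34% with the block, the shares to set beside the calls below. Summed over 15 heart and skeletal muscle markers, intensity was 7059 to 7586 in the EBF arrays and 6378 to 7000 in the controls, without overlap. Yet 0 of the 15 were called, and 2 were with the block (Myh6 and Myog). Of the 15, 5 exceeded the highest Bacillus control on all 6 arrays and 7 on 0 of 6. Myh7, the slow myosin gene, stayed below the median Bacillus control on all 6. No marker was listed at 0. Of 23 stromal and smooth muscle genes, which would mark ST2 cells, 1 was called lower and 0 higher: Igfbp4, an IGF binding protein gene, fell by 0.83 ± 0.07 (limma adjusted p = 0.00222). The block added Ptn, a growth factor gene, as higher (0.34 ± 0.09; adjusted p = 0.140, blocked 0.0378). The other Ptn probe sets were not called (-0.105, blocked adjusted p = 0.532, and -0.03, blocked 0.873). Of the 23 stromal and smooth muscle genes, 16 exceeded the highest Bacillus control on all 6 arrays and 4 on 0 of 6. The list had a summed intensity of 30780 to 40770 in the EBF arrays and 37990 to 52870 in the controls, with overlap. Array by array the sum was 40770, 30780 and 36660 in EBF 1 to 3 and 37990, 46910 and 52870 in control 1 to 3. The part of such cells in the troponin readings was not tested.

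For the blood lineages, 7 myeloid genes summed to 4207 to 4487 in EBF and 4380 to 4817 in control arrays, and 5 T cell genes to 3399 to 3921 and 3308 to 3832, with overlap in both lists. The 4 erythroid genes summed to 2360 to 2483 in EBF and 2285 to 2373 in control arrays, and the heme synthesis gene Alas2 was called higher with the block alone (0.48 ± 0.14; adjusted p = 0.145, blocked 0.0143). The 6 NK cell genes summed to 2973 to 4060 in EBF and 4729 to 6282 in control arrays, without overlap. Of the myeloid list, limma called Lyz2, a lysozyme gene, lower (-0.48). Of the NK list it called Gzma, a granule protease gene, higher (2.78) and Klrd1 (-2.06) and Nkg7 (-1.70) lower. The other 3 NK genes, Ncr1 (0.04), Prf1 (0.02) and Eomes (0.13), were not called. The shares over all genes were 1.09% and, with the block, 7.34%. Of the 14 pro-B genes, Kit (-0.79) and Dntt (-0.70) were called lower. The other Kit probe set was not called (-0.16, limma adjusted p = 0.273). Another Dntt probe set was called lower (-0.87, adjusted p = 0.0075) and a further one was not (-0.03, 0.825). With the block Ly6d (-0.80 ± 0.24; adjusted p = 0.163, blocked 6.11e-04) was added as lower, and Igll1 (0.57), Cd79b (0.40) and Il7r (0.42) as higher. Igfbp4, Gzma, Klrd1 and Nkg7 kept the call without any 1 array. Lyz2 kept it only without EBF 3 (highest adjusted p 0.101), Kit only without EBF 3 or control 3 (0.0995) and Dntt only without EBF 3 or control 2 (0.106). The part of these cells in the troponin readings was likewise not tested.

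Genes whose readings followed the brightest Tnnt2 probe set most closely over the 6 arrays were sought among 439 probe sets with a mean above the highest Bacillus control and a range of at least 1 in log2(intensity + 32). The 5 closest were Zdhhc13, a palmitoyltransferase gene (Pearson r = 0.9996), Acp6, a lysophosphatidic acid phosphatase gene (0.996), Sapcd2 (0.992), Fam53b (0.991) and Rsph9, a radial spoke gene of cilia (0.991). These values describe 6 arrays that fall into 2 groups, so they mostly restate the group difference. Once each group's mean was removed, r was 0.98 for Zdhhc13 and 0.96 for Sapcd2, 0.77 for Acp6, 0.36 for Fam53b and 0.06 for Rsph9. The 5 genes were picked from 439 probe sets for likeness on these same arrays. These values are thus partly fixed by the choice and are no separate evidence of likeness. Zdhhc13 read 2854, 3064 and 2687 in EBF 1 to 3 and 1466, 1414 and 1341 in control 1 to 3. EBF 2 was its highest array and EBF 3 the lowest of the EBF group, the order of Tnnt2, which the choice by correlation favours.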

How the data were processed

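RNA from 6 samples was hybridised to Affymetrix arrays. Each array's deposited table holds a linear intensity for every probe set. For the software, background correction and scaling that the authors applied, nothing is stated in the labels or the table. The design text names a rat array, whereas the platform table used here pairs the probe sets with mouse genes. Values were analysed as log2(intensity + 32) without scaling, since 2% trimmed means differed by a factor of 1.03, within the 5% limit. After 64 Affymetrix controls were left out, 45037 probe sets were fitted with limma 3.58.1 in R 4.3.3. Group was the only term, and the test was two-sided, with Benjamini-Hochberg over all probe sets and a threshold of 0.05. Of the 45037 probe sets, 34945 had 1 gene symbol, 932 several and 9160 none listed. The procedure was run on simulated data with independent arrays. That run lacks the deviations that same-numbered arrays share, so nothing is read from it about the calls. The number of arrays limits the precision, and no detection calls were used.

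The members and lists were chosen with earlier results of these data known. All troponin probe sets are named. From each list every called gene up to 4 is named, or else the 2 with the smallest p; from the marker lists, those called; plus Ebf1, Pax5, the neighbours of Tnnt2 and the 5 genes most like it. Of 160 entries in 10 lists, 11 matched no measured gene. Promoter windows are RefSeq's, GRCm38.p6. Deviations of arrays with the same replicate number correlated at 0.318, 0.255 and 0.504, above the limit of 0.1, so a fit with the replicate number as a block was set beside the main design, which has no block. The labels say nothing of what the numbers stand for, and the pairing rests on these correlations. Alternatives were other pseudocounts and scalings, a filter on dim probe sets, the replicate block, all probe sets per gene and arrays left out.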

Additional observations from a re-analysis of the deposited data

How the results depend on the processing

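The filter on dim probe sets removed Tnnt2 and left 0 troponin calls. The brightest Tnnt2 probe set differed by 2.63 to 2.86 without any 1 array, and by 2.68 with the controls set to the Bacillus median and no pseudocount, chosen after seeing the data. Troponin probe sets called higher numbered 2 to 3 without any 1 array, and 0 were called lower in any alternative. Tnni3 (0.02) and Tnnc1 (-0.01) changed sign without control 1. All probe sets called numbered 394, 3280 with the replicate block, 1887 without EBF 3 and control 2 together, and 79 to 4287 without any 1 array (EBF 2 gave 79, control 2 gave 83, control 1 gave 95, EBF 1 gave 119, control 3 gave 214 and EBF 3 gave 4287). With the replicate block, which pairs same-numbered arrays, 4 thick filament genes, 1 transcription factor, 2 stromal genes and 1 neighbour were called at their brightest probe sets. At those probe sets the block changed no call of thin filament or calcium handling genes. Without any 1 array, called genes numbered 0 to 2 for the thick filament list, 0 to 3 for transcription factors, 1 to 3 for stromal genes and 0 to 1 for neighbours. Without EBF 3 and control 2 together there were 2 thick filament and 3 stromal genes. Over all probe sets of each list, calls were 1 for transcription factors (Mef2a), 6 for stromal genes (all Igfbp4) and 1 for neighbours (Igf2). Dim readings and 3 arrays per group limit what could be detected. The cause of these shifts was not tested.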

Other observations

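Probe sets of the same gene also disagreed for genes set beside the troponins, and these were picked after their values were seen. Igf2, a growth factor gene near Tnnt3, had a bright probe set at 23900 ± 1349 in EBF and 21170 ± 1286 in control arrays (SD, n = 3 each; log2 difference 0.18 ± 0.08, limma adjusted p = 0.282). Its dimmer probe set read 2639 ± 106 and 1812 ± 21.3 and rose by 0.53 ± 0.07 (adjusted p = 0.0130). Mef2a, a transcription factor of muscle and other tissues, had 0.00 ± 0.08 at its brightest probe set (adjusted p = 0.988). Another read 1409 ± 62.8 in EBF and 2070 ± 87.7 in control arrays and fell by 0.54 ± 0.07 (adjusted p = 0.0154). Further Mef2a probe sets were called lower with the block only (-0.40, adjusted p = 0.069, blocked 0.0161, and -0.51, 0.0686, blocked 0.0201). The remaining ones (-0.17 and -0.01) were not called with or without the block. Without any 1 array other than EBF 3 the Igf2 call was lost (highest adjusted p 0.0757), and the Mef2a call was lost without EBF 1, EBF 2, control 1 or control 2 (0.101). All 6 measured probe sets of Igfbp4 were lower with EBF, by 0.70 to 0.97.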
